A study of Mus musculus with 201 samples.

Results

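The FOS and JUN genes encode the core subunits of activator protein-1 (AP-1). The family was taken as the 7 genes *Fos*, *Fosb*, *Fosl1*, *Fosl2*, *Jun*, *Junb* and *Jund*, chosen by name, out of 42983 gene symbols in the tables of single dentate granule cells (DGCs) and DGC nuclei of the mouse. Each of the 201 samples was 1 cell or 1 nucleus. Whole cells came from Prox1-GFP mice, in which green fluorescent protein marks cells that use the *Prox1* promoter. These mice were injected with saline or with pentylenetetrazole (PTZ, a convulsant that blocks GABA(A) receptors) at 50 mg per kg and killed 1 h later (their age is not given in the sources used here). Hippocampi of 2 mice per treatment were pooled, dissociated with papain, a protease, and sorted for GFP. The titles of all saline cells end in a code that begins with frz and those of all PTZ cells in another code without it, so treatment and whatever these codes mark cannot be told apart. Nuclei came from C57BL/6 females of 8 weeks and were freed from the tissue by Dounce homogenisation, without protease. A mouse exposed for 15 min to an unfamiliar cage with huts and tunnels (new environment, NE) gave nuclei 1 h later, which were sorted as Prox1+/Fos+ or Prox1+/Fos− by antibody. A mouse in its home cage (HC) gave nuclei labelled as NeuN+/Prox1+, for which the methods describe scoring of both stains by imaging on the capture chip. No label names the animal of a cell, and the FOS+ and FOS− nuclei shared 1 mouse. Each group was therefore treated as 1 sample, no p value was computed from cells, and all intervals cover counting error only.

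AP-1 is a pair of leucine-zipper proteins, either a FOS protein with a JUN protein or a pair of JUN proteins, that binds DNA at the TRE, a short palindromic element. FOS itself binds DNA only with a partner such as JUN. In neurons *Fos*, *Fosb* and *Junb* are immediate early genes (IEGs), switched on within minutes of calcium entry through CREB and SRF that already sit at their promoters. *Fosl2* (FRA-2) and *Fosl1* (FRA-1) lack the strong activation domain of FOS. *Jun* encodes the strongest activator of the JUN proteins, whereas JUNB is a weaker one and *Jund* is transcribed in many resting cells.

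The 7 genes lie on 6 chromosomes of GRCm38. *Fos* spans 85473890 to 85477273 on chromosome 12, *Fosb* 19302696 to 19310051 on chromosome 7, *Fosl1* 5447547 to 5455946 on chromosome 19 and *Fosl2* 32135801 to 32157842 on chromosome 5. *Jun* spans 95049034 to 95052222 on chromosome 4. *Junb* and *Jund* share chromosome 8, at 84974484 to 84978718 and 70698949 to 70700616. The promoters of 4 members are shown. The letters of *Fos*, *Fosb* and *Junb*, which hold elements of the CREB type, can be compared with those of *Fosl2*. The *Fosl2* window holds none, but it lies inside the gene as GENCODE places it. Each promoter runs from 250 bases before to 50 bases after the RefSeq start (GRCm38.p6). Capitals mark TGACG, the core of the cAMP response element, and the TATA box letters TATAAA.
Fos promoter, chr12:85473640-85473939, plus strand: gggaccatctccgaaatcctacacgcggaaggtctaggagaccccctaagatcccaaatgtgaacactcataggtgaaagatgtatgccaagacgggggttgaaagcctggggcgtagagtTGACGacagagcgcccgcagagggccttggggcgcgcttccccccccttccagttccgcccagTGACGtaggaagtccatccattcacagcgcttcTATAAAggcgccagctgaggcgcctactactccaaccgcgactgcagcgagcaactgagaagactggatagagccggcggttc
Fosb promoter, chr7:19309996-19310295, minus strand: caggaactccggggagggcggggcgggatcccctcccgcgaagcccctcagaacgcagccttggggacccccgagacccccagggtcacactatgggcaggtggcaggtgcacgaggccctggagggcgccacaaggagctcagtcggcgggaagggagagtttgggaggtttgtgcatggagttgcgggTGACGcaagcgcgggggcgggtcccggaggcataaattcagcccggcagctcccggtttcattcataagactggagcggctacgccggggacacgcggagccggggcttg
Junb promoter, chr8:84978699-84978998, minus strand: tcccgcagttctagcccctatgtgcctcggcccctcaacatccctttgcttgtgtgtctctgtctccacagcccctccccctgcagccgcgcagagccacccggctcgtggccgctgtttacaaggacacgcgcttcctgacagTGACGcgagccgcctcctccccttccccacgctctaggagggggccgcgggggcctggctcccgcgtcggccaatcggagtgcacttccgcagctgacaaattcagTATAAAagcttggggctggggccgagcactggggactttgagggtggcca
Fosl2 promoter, chr5:32136222-32136521, plus strand: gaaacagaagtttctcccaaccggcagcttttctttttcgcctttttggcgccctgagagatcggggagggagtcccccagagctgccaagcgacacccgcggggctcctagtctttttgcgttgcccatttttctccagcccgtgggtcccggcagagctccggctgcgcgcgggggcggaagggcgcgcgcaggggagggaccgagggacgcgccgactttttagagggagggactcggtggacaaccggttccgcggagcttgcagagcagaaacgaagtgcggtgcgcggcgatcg

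The search covered both strands. TGACG was found in *Fos* at −129 and −66 from the start, in *Fosb* at −60 and in *Junb* at −106, where 20.9% of 32544 promoters of the same length hold it. TATAAA stood at −33 in *Fos* and at 1 in *Junb*, whose annotated RefSeq start lies upstream of the GENCODE start, and 13.6% of all promoters hold it. None of these letters were found in the windows of *Fosl2*, *Jun* and *Jund*. The RefSeq starts of *Fosl2* and *Jund* used for the windows differ from the GENCODE gene starts given above. The *Fosl2* window lies inside the GENCODE gene, and the *Jund* window (70697489 to 70697788) ends before its gene begins. Neither window covers the bases just before the GENCODE start, so absence there says nothing about those bases. The full cAMP response element TGACGTCA, the TRE TGANTCA and the CArG box, the motif that SRF binds, were in none of the 6 windows searched, and in 1.8%, 7.79% and 1.64% of all promoters. Bases further upstream than the windows were not searched, so an element there would be missed. *Fosl1* had no window in the table used.

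The limits for keeping a cell were a total above 50000 counts and a number of genes, counted at a TPM above 1, no lower than 2 SD under the average of its table. TPM is the abundance of a transcript scaled by its length and to the same sum in each cell. Of the samples 38 of 47 from saline mice, 30 of 35 from PTZ mice, 40 of 48 in the FOS+ gate and 41 of 48 in the FOS− gate were kept, and all 23 HC nuclei were used. The limits were not applied to HC nuclei, of which 1 was below the limit on the number of genes. Total counts had a median of 975934 in saline cells, 1090755 in PTZ cells, 269061 in FOS+ nuclei, 214421 in FOS− nuclei and 165926 in HC nuclei. A gene was called detected in a cell at a TPM above 1. *Prox1* was detected in 38 of 38 saline cells, 30 of 30 PTZ cells, 33 of 40 FOS+ nuclei, 34 of 41 FOS− nuclei and 14 of 23 HC nuclei, and at least 2 of 5 granule cell markers were detected in all FOS+, FOS− and saline samples, in 28 of 30 PTZ cells and in 21 of 23 HC nuclei. Of the markers of other cells, at least 2 of the 4 oligodendrocyte genes were detected in 25 of 40 FOS+ and 16 of 41 FOS− nuclei, with summed TPM of 0 to 908 and 0 to 351, and at least 2 of the 6 interneuron genes in 10 and 8 nuclei, with summed TPM of 0 to 1360 and 0 to 5822. *Mog* and *Slc32a1* were not detected in FOS+ nuclei and *Pvalb* in neither group. Their part in the differences below was not tested.

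In the mouse exposed to NE, most of the family was found in more FOS+ than FOS− nuclei. *Fosl2* was detected in 27 of 40 FOS+ nuclei (67.5%, 95% Clopper-Pearson interval 50.9 to 81.4%) and in 5 of 41 FOS− nuclei (12.2%, 4.08 to 26.2%), a difference of 55.3 percentage points. *Fosb* differed by 42.6 points, *Jun* by 38.4, *Junb* by 32.8, *Fos* by 22.7 and *Jund* by 18.4, each higher in FOS+ nuclei. Of 10 alternatives (the limit of detection, the nuclei, the depth and the single amplification conditions), *Fosb*, *Fosl2* and *Jun* stayed at least 20 points higher in 10, *Junb* in 9 and *Fos* in 7, and *Jund* reached 20 points in 1. *Fosl1* was detected in 2 of 40 and 1 of 41 nuclei. Of the 6 members with a count in at least 5 nuclei, 5 were at least 20 points higher in FOS+ nuclei and 0 lower, against 4.3% and 3.69% of 16411 genes. The filter lets a gene in through the group in which it is high, and the nuclei were sorted on the protein of 1 of these genes.

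**Figure D1:**
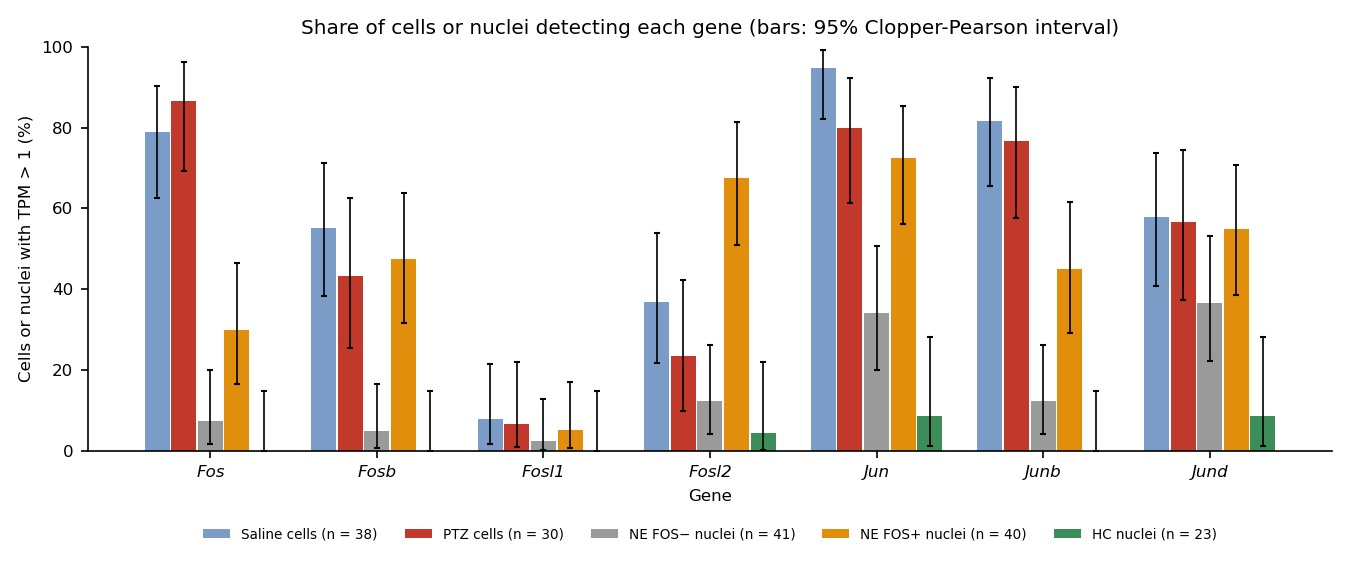
Share of cells or nuclei (%, vertical axis) with a TPM above 1 for each of the 7 genes (horizontal axis) in the 5 groups, with bars for the share and lines for the 95% Clopper-Pearson interval. *Fosl2* stood at 67.5% in FOS+ and 12.2% in FOS− nuclei, whereas *Fos* stood at 78.9% in saline and 86.7% in PTZ cells.

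Among the FOS genes, *Fos* mRNA was below the limit in most of the nuclei sorted for its protein. The study set apart some FOS-stained nuclei whose expression was like that of FOS− nuclei, but no label marks them, so the 40 FOS+ nuclei may include them. It was detected in 12 of 40 (30%, interval 16.6 to 46.5%), at TPM values from 10.3 to 2819 with a median of 102 among those 12. In 4 nuclei it exceeded 1000 TPM (1183, 2230, 2323 and 2819), and 28 FOS+ nuclei had none above the limit. In FOS− nuclei it was detected in 3 of 41 (7.32%, 1.54 to 19.9%), at 1.85, 3.31 and 13.8 TPM. The summed counts were 4029 and 3, a ratio, scaled by library totals, of 1297 (interval 443 to 6292), and 49.0% of the FOS+ counts came from 1 nucleus. Without the highest nucleus of each group the log2 fold was 9.99, against 10.34 with it.

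*Fosb*, whose splice variants include the long-lived ΔFOSB, was detected in 19 FOS+ nuclei where *Fos* was detected in 12. The intervals overlapped, but both genes were read in the same 40 nuclei, and 10 of these held both. The TPM of *Fosb* ranged from 0 to 698 in FOS+ nuclei with a median of 0. It ran from 3.38 to 698 with a median of 105 in the 19 nuclei that detected *Fosb* (47.5%, interval 31.5 to 63.9%). In FOS− nuclei 2 of 41 (4.88%, 0.60 to 16.5%) held it, at 2.21 and 3.86 TPM, so that all but 1 of the detecting FOS+ nuclei lay above the highest FOS− nucleus. Summed counts of 2262 and 2 gave a ratio of 1092 (302 to 9025), or 10.09 on the log2 scale. The log2 fold was 10.76 without the highest nucleus of each group and 8.90 for the mean TPM.

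*Fosl2* was the member detected in most FOS+ nuclei after *Jun*, and its difference was the 10th highest of all 16411 genes. It ranged from 0 to 571 TPM in FOS+ nuclei with a median of 12.7, whereas the median of FOS− nuclei was 0. The 5 FOS− nuclei with *Fosl2* held 1.18, 1.76, 14.2, 156 and 203 TPM. The last of these supplied 84.2% of the FOS− counts (893 in all, against 4262 in FOS+ nuclei). With it the fold of summed counts was 4.61 (4.29 to 4.96), or 2.20 on the log2 scale, and without the highest nucleus of each group the log2 fold was 4.56. *Fosl1* had 71 counts in FOS+ nuclei, 91.5% of them in 1 nucleus, and 1 count in FOS− nuclei. Of its 31-base words 54.5% occur on the opposite strand in *Ccdc85b*, which was detected in 4 FOS+ and 3 FOS− nuclei.

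Among the JUN genes, *Junb* had the largest ratio and *Jun* the most detecting nuclei. *Junb* was detected in 18 of 40 FOS+ nuclei (45%, interval 29.3 to 61.5%), at 4.21 to 1770 TPM with a median of 323 among them, and in 5 of 41 FOS− nuclei (12.2%, 4.08 to 26.2%) at 3.22 to 239 TPM. The fold of summed counts was 33.8 (28.4 to 40.7), from 4416 and 126 counts. *Junb* overlaps *Prdx2* on the opposite strand, which differed in the other direction, with detection in 12 of 40 FOS+ and 24 of 41 FOS− nuclei. For *Jun* the shares were 29 of 40 (72.5%, 56.1 to 85.4%) and 14 of 41 (34.1%, 20.1 to 50.6%), but the levels in detecting nuclei overlapped, from 1.97 to 528 TPM with a median of 57.6 in FOS+ and from 1.22 to 442 TPM with a median of 54.1 in FOS− nuclei. Its fold of summed counts was 1.42 (1.33 to 1.51), or 0.50 on the log2 scale, which became −0.05 without the highest nucleus of each group. *Jun* was thus found in more FOS+ nuclei and not at a higher summed level once 1 nucleus per group was set aside. Of 11 alternatives its log2 fold was above 0 in 9 and below 0 in 2, from −0.37 to 0.92.

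The difference of *Jund* was the smallest among the JUN genes. FOS+ nuclei held it in 22 of 40 (55%, interval 38.5 to 70.7%) at 3.05 to 156 TPM, and FOS− nuclei in 15 of 41 (36.6%, 22.1 to 53.1%) at 2.03 to 77.8 TPM. The fold of summed counts was 1.28 (1.11 to 1.47), and its log2 value of 0.35 was below 0 in 2 of 11 alternatives, the amplification conditions with 10 µM of template-switching oligonucleotide (−2.24 and −0.33). The antisense gene *Gm11175* holds 50.1% of the 31-base words of *Jund* in reverse and was detected in 2 FOS+ and 3 FOS− nuclei. Over all genes the median log2 fold of summed counts was −0.20 and the median difference in detection −0.79 points, and scaling by TMM factors moved every fold up by 0.25. At least 4-fold higher summed counts in FOS+ nuclei were found for 8.16% of 16370 genes and for *Fos*, *Fosb*, *Fosl2* and *Junb*.

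**Figure D2:**
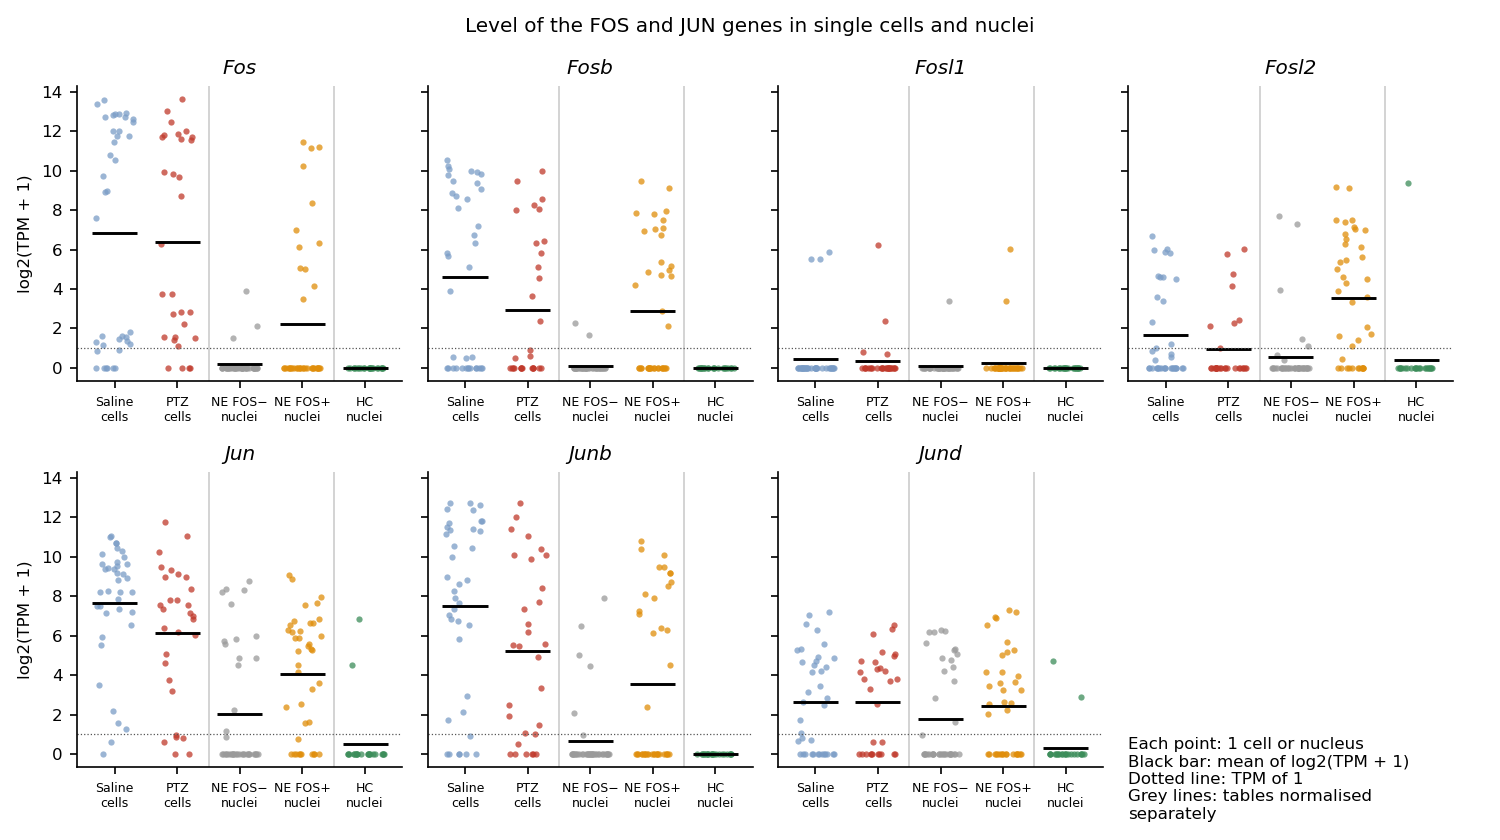
Level of each gene as log2(TPM + 1) (vertical axis) in every saline cell, PTZ cell, FOS− nucleus, FOS+ nucleus and HC nucleus kept (horizontal axis), with a point for each cell or nucleus, a black bar for the mean and a dotted line at a TPM of 1. *Fos* in saline cells leaves a gap between 2.58 and 190 TPM, and the *Fosl2* points of FOS+ nuclei reach 571 TPM.

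Levels can be ordered within a group because TPM is scaled by length. In FOS+ nuclei the mean of log2(TPM + 1) was 4.06 ± 2.99 (SD over 40 nuclei) for *Jun*, 3.55 ± 3.11 for *Fosl2*, 3.55 ± 4.22 for *Junb*, 2.91 ± 3.39 for *Fosb*, 2.44 ± 2.56 for *Jund*, 2.24 ± 3.79 for *Fos* and 0.24 ± 1.08 for *Fosl1*. Each neighbour in this order differed from the next by less than the larger of their SDs. These SDs describe the spread of nuclei and not the error of a mean. In FOS− nuclei *Jun* led with 2.02 ± 3.09 (SD over 41 nuclei), then *Jund* with 1.79 ± 2.47, and the other 5 members had means of 0.08 to 0.66. On the linear scale the order in FOS+ nuclei was another, with *Fos* (mean 231 TPM) and *Junb* (216 TPM) first, since few nuclei held high values.

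The NE nuclei were amplified in 4 conditions, with 1 or 10 µM of template-switching oligonucleotide (TSO) and spike-ins diluted 200- or 2000-fold. The detection of *Fos*, *Fosb*, *Fosl2*, *Jun*, *Junb* and *Jund* was higher in FOS+ than in FOS− nuclei in all 4 conditions, and that of *Fosl1* in 2 of them. *Fosl2* ranged from 36.4 points at 10 µM and 200-fold (4 of 11 FOS+ and 0 of 10 FOS− nuclei) to 70.0 points at 1 µM and 200-fold (9 of 10 and 2 of 10). The lower value came with the lowest depth, a median of 152332 counts in FOS+ and 79166 in FOS− nuclei. If every nucleus were read to 50000 counts, the expected detection of *Fosl2* would be 58.9% in FOS+ and 8.81% in FOS− nuclei, of *Fosb* 44.1% and 1.71%, and of *Jund* 40.7% and 31%. The difference of *Jund* was then 9.74 points.

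**Figure D3:**
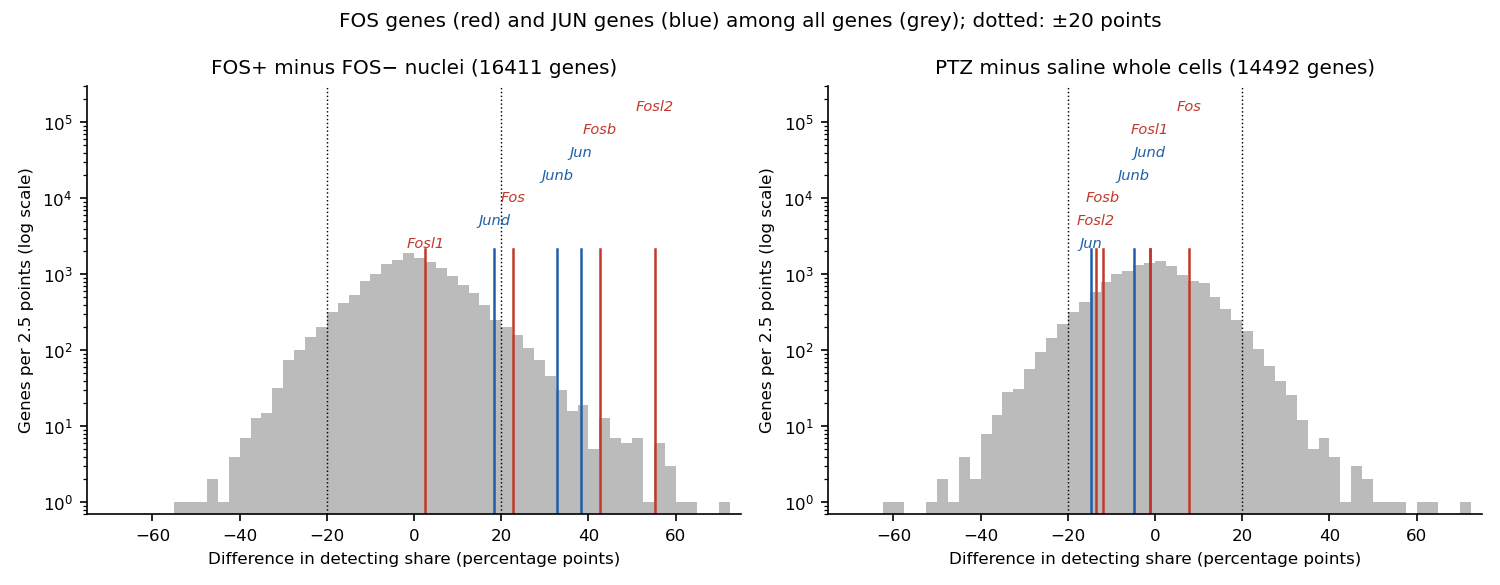
Difference in detecting share (percentage points, horizontal axis) of all genes with a count in at least 5 cells (grey, genes per bin on a log axis), for FOS+ minus FOS− nuclei on the left and PTZ minus saline cells on the right, with red lines for FOS genes and blue lines for JUN genes. *Fosl2* (55.3) and *Fosb* (42.6) lie in the right tail of the nuclei, *Fosl1* was below the filter there and is drawn for its place, and the 7 genes lie between −14.7 and 7.72 in whole cells.

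Co-detection was next read for the 21 pairs of members in FOS+ nuclei. Nuclei with *Fosb* nearly all held *Fosl2*, 18 of 19, and 11 of the 12 nuclei with *Fos* held *Fosl2* and 10 held *Fosb*. The reverse did not hold, as 16 of the 27 nuclei with *Fosl2* lacked *Fos* and 8 lacked both *Fos* and *Fosb*. In all, 18 of the 28 FOS+ nuclei without *Fos* mRNA held another FOS gene. Among the JUN genes, 16 of 18 nuclei with *Junb* held *Jun*, and 14 held *Jund*. The most frequent pair was *Fosl2* with *Jun*, in 21 of 40 nuclei (52.5%), beside 19.6 from the product of the shares. For *Fosb* with *Fosl2* the count was 18 beside 12.8, for *Fos* with *Fosb* 10 beside 5.70 and for *Junb* with *Jund* 14 beside 9.90. The count was above the product for 19 of 21 pairs, the 2 others being *Fosl1* with *Fosl2* and with *Jund*. Pairs of other genes were not counted, so no share over all pairs can be set beside this. These nuclei differ in depth and amplification, and the part of that in the counts was not tested.

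A FOS gene and a JUN gene, the composition of the classical AP-1 dimer, were detected in the same nucleus in 27 of 40 in the FOS+ gate (67.5%, interval 50.9 to 81.4%) and in 6 of 41 in the FOS− gate (14.6%, 5.57 to 29.2%). Any FOS gene was detected in 30 FOS+ and 9 FOS− nuclei and any JUN gene in 34 and 26. The joint counts were near the products of these shares. JUN genes without any FOS gene were found in 7 FOS+ and 20 FOS− nuclei, FOS genes without a JUN gene in 3 and 3, and none of the 7 in 3 and 12. FOS+ nuclei held 3.23 ± 1.87 members (SD, n = 40) and FOS− nuclei 1.10 ± 0.89 (SD, n = 41). At least 4 members were detected in 17 FOS+ nuclei and in 0 of 41 FOS− nuclei. This 0 allows a share of up to 7.32% by the limit of 3 nuclei used here, and of 8.60% by the Clopper-Pearson interval. The 40 FOS+ nuclei showed 25 different combinations, of which the most frequent, all members but *Fosl1*, was seen in 5. In FOS− nuclei the most frequent states were none (12), *Jund* alone (7), *Jun* alone (5) and both of these (4). There 10 of the 21 pairs were never seen together, beside 0.05 to 1.10 nuclei from the products of their shares.

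**Figure D4:**
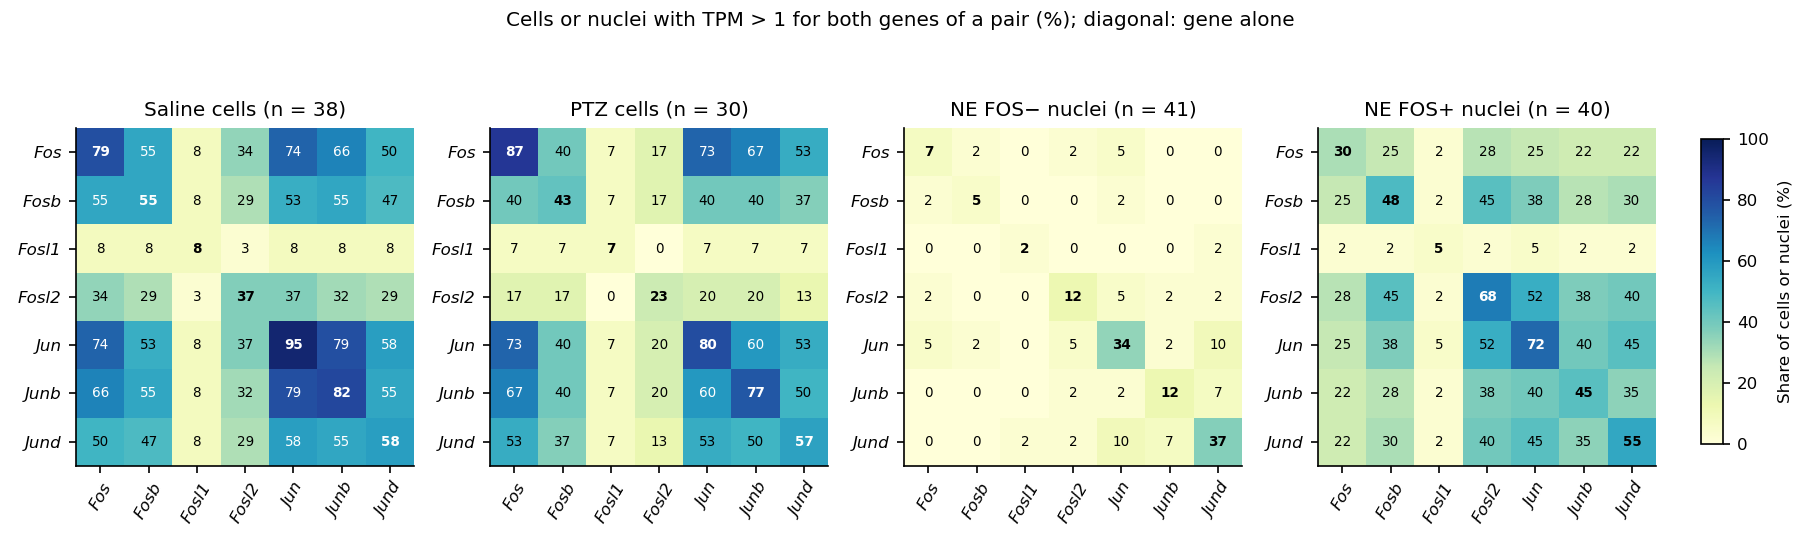
Share of cells or nuclei (%, colour and printed value) with a TPM above 1 for both genes of a pair, by gene on both axes, in saline cells, PTZ cells, FOS− nuclei and FOS+ nuclei, with each gene alone on the diagonal. *Fosb* with *Fosl2* was seen in 45% of FOS+ nuclei and *Fos* with *Fosb* in 55.3% of saline cells.

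The levels of the pairs were described by rank. Spearman's rho of TPM over the 40 FOS+ nuclei was 0.61 for *Fos* with *Fosb*, 0.61 for *Fosb* with *Fosl2*, 0.54 for *Fos* with *Junb* and 0.53 for *Fos* with *Fosl2*. It was 0.13 for *Jun* with *Jund* and −0.04 for *Fosl2* with *Jund*. These values describe nuclei of 1 mouse that differ in depth and amplification, and the number of members per nucleus had a rho of 0.27 with the total count and 0.03 with the number of genes.

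In whole cells the question was whether PTZ, given 1 h before, set the family apart from saline. Each of the 7 genes was found in both treatments, *Fos*, *Jun* and *Junb* in most cells, and no member differed in detection by 20 points at a TPM above 1, where 3.09% of 14492 genes were that much higher in PTZ cells and 4.33% that much lower. *Fos* was detected in 26 of 30 PTZ cells (86.7%, interval 69.3 to 96.2%) and 30 of 38 saline cells (78.9%, 62.7 to 90.4%). *Fosb* was detected in 13 of 30 (43.3%, 25.5 to 62.6%) and 21 of 38 (55.3%, 38.3 to 71.4%), *Jun* in 24 (80.0%) and 36 (94.7%), *Junb* in 23 (76.7%) and 31 (81.6%), and *Jund* in 17 (56.7%) and 22 (57.9%). The intervals of the treatments overlapped for every member. Detection of *Fos* was higher by 7.72 points in PTZ cells and that of the other 6 lower by 1.23 to 14.7 points, and of all genes 46.1% were higher by any amount. Of 6 alternatives, *Jund* turned to higher in 5 and *Fosl1* in 1. *Fosl2* was 20.7 points lower in PTZ cells at a TPM above 0 and *Junb* 23.0 points lower at a count of at least 5, both past the limit of 20.

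*Fos* levels in saline cells lay in a low and a high range with nothing between. Of the 30 cells with *Fos*, 9 held 1.24 to 2.58 TPM and 21 held 190 to 12419 TPM. In PTZ cells 12 of 26 held 1.15 to 75.4 TPM and 14 held 424 to 12461 TPM. The mean was 2665 TPM in saline and 1797 TPM in PTZ cells. Summed counts gave a log2 fold of 0.16 for PTZ over saline, from 125589 and 111202 counts, but the means of TPM and CPM over cells gave −0.57 and −0.36, so that the direction depended on the measure.

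*Junb* and *Fosb* had lower values in PTZ cells on each scale used. *Junb* ranged from 0 to 6622 TPM with a median of 44.5 in PTZ cells and from 0 to 6748 TPM with a median of 345 in saline cells. *Fosb* ranged from 0 to 1019 TPM with a median of 0.455 and from 0 to 1493 TPM with a median of 41.8. Their log2 folds of summed counts were −0.35 and −0.54, and those of the mean TPM −1.18 and −1.50. The groups overlapped over nearly their whole ranges. For *Jun* the medians were 133 and 381 TPM, the log2 fold of summed counts 0.03 and that of the mean TPM −0.56.

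*Fosl2* was low in whole cells, where *Fos* was high. It was detected in 7 PTZ cells (23.3%, interval 9.93 to 42.3%) and 14 saline cells (36.8%, 21.8 to 54.0%), never above 103 TPM. Its summed counts of 385 and 1698 were 4.45-fold lower in PTZ cells (3.98 to 4.98), where 5.12% of 14433 genes were at least 4-fold lower and 5.48% at least 4-fold higher. The log2 value of −2.15 became −1.89 without the highest cell of each treatment and −1.09 for the mean TPM. *Jund* stayed between 0 and 145 TPM, with means of 17 in PTZ and 21 in saline cells. *Fosl1* was detected in 2 PTZ and 3 saline cells, while its opposite-strand neighbour *Ccdc85b* was detected in 21 and 24.

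On the log2(TPM + 1) scale the saline order was *Jun* (7.67 ± 3.05, SD over 38 cells), *Junb* (7.48 ± 4.52), *Fos* (6.83 ± 5.57), *Fosb* (4.60 ± 4.35), *Jund* (2.61 ± 2.48), *Fosl2* (1.66 ± 2.33) and *Fosl1* (0.44 ± 1.54). PTZ cells had *Fos* first with 6.37 ± 5.02 (SD over 30 cells), then *Jun* with 6.16 ± 3.44 and *Junb* with 5.24 ± 4.36. Neighbours differed by less than the larger of their SDs in both. By mean TPM *Fos* ranked 25th of 18909 genes with a mean above 0 in saline cells and 32nd of 18937 in PTZ cells, and *Junb* ranked 43rd and 150th. The tables of whole cells and nuclei were made separately and their read lengths differ, so these levels are set beside those of nuclei without a comparison.

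Saline cells held 4.13 ± 1.74 members (SD, n = 38) and PTZ cells 3.73 ± 1.60 (SD, n = 30). The difference was below either SD, which describes the spread of cells and not the error of a mean. A FOS and a JUN gene occurred together in 30 of 38 saline cells (78.9%, interval 62.7 to 90.4%) and 27 of 30 PTZ cells (90.0%, 73.5 to 97.9%). Any FOS gene was detected in 31 saline and 28 PTZ cells and any JUN gene in 37 and 29. The joint counts were near the products of these shares. All 21 saline cells with *Fosb* also held *Fos* and *Junb*, beside 16.6 and 17.1 from the products of the shares, and 20 of them held *Jun*. In PTZ cells 12 of 13 cells with *Fosb* held *Fos* and 12 held *Junb*. *Fos* was present in 13 of 14 saline cells and 5 of 7 PTZ cells with *Fosl2*. Over the 38 saline cells rho was 0.89 for *Fos* with *Fosb*, 0.88 for *Fosb* with *Junb* and 0.87 for *Fos* with *Junb*, and 0.38 for *Fos* with *Fosl2*. Over the 30 PTZ cells these were 0.72, 0.66, 0.57 and 0.04. The number of members had a rho of 0.55 with the total count in PTZ cells, whose totals ran from 67212 to 5129240, and of 0.03 in saline cells.

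**Figure D5:**
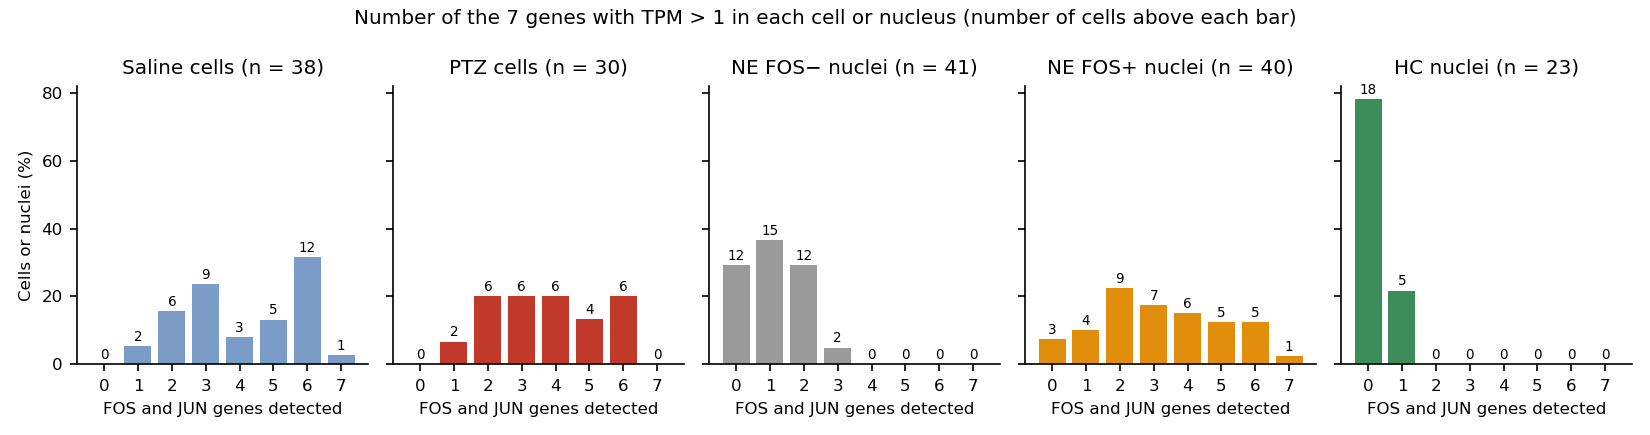
Share of cells or nuclei (%, vertical axis) with 0 to 7 of the FOS and JUN genes at a TPM above 1 (horizontal axis) in each group, with the number of cells above each bar. No FOS− nucleus held more than 3, 17 FOS+ nuclei held 4 or more, and 18 of 23 HC nuclei held none.

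HC nuclei were processed on another platform (Fluidigm C1) and are described alone. *Fos*, *Fosb*, *Fosl1* and *Junb* were detected in 0 of 23 nuclei, which by the same limit allows a share of up to 13% for each. *Fosl2* was found in 1 nucleus at 662 TPM, from 538 counts, *Jun* in 2 at 21.5 and 115 TPM and *Jund* in 2 at 6.38 and 25.5 TPM. These were 5 different nuclei, so no HC nucleus held 2 members and 18 held none. At 50000 counts the expected shares were 4.35%, 8.47% and 6.23% for *Fosl2*, *Jun* and *Jund*.

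*Arc*, an IEG outside the family that encodes a capsid-like protein found in dendrites, is set beside the members. It was detected in 31 of 40 FOS+ nuclei and 1 of 41 FOS− nuclei, in 14 of 30 PTZ and 17 of 38 saline cells and in 1 of 23 HC nuclei. In FOS+ nuclei the count for *Arc* was above that for *Fos* (31 and 12 nuclei), and in whole cells it was below it.

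Other leucine-zipper proteins can replace a FOS or JUN partner. Of 14 such genes 7 had a count in at least 5 NE nuclei, and 3 were at least 20 points higher in FOS+ nuclei and 0 lower, beside 4.3% and 3.69% of all genes. *Atf3*, a stress-induced gene, was detected in 13 of 40 FOS+ and 1 of 41 FOS− nuclei, *Atf4*, of the integrated stress response, in 16 and 6, and *Jdp2*, a repressor that pairs with JUN, in 9 and 0. The median difference of the 7 was 9.51 points, beside −0.79 for all genes. In whole cells 9 passed and 0 reached 20 points in either direction. The largest differences there were −19.8 points for *Atf7* (13 of 30 and 24 of 38 cells), 12.3 for *Atf4* (25 and 27) and 11.4 for *Mafk* (5 and 2).

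Of 16 kinases and promoter factors that act on these genes or their products, 15 passed in nuclei, and 2 were at least 20 points higher in FOS+ nuclei and 0 lower, beside 4.3% and 3.69% of all genes, with a median of 7.01 points beside −0.79. By summed counts 1 was at least 4-fold higher in FOS+ nuclei and 2 lower, beside 8.16% and 13.9% of 16370 genes. *Rps6ka3* (RSK2), an ERK-dependent kinase that phosphorylates CREB, was detected in 25 of 40 and 8 of 41 nuclei, *Map2k1* (MEK1), the kinase above ERK, in 27 and 17, and *Mapk10* (JNK3), which phosphorylates JUN, in 32 and 26. In whole cells all 16 passed. *Mapk10* was 21.4 points lower in PTZ cells (22 of 30 and 36 of 38 cells), where 4.33% of all genes were at least 20 points lower, and *Creb1* (17 and 14 cells) and *Srf* (8 and 16 cells) differed by 19.8 and −15.4 points. The list median was −1.67 points, beside −0.70 for all genes.

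The 7 regulators of FOS or JUN protein all passed and none reached 20 points in nuclei, with a median of −0.18. By summed counts 1 was at least 4-fold higher in FOS+ nuclei and 1 lower, beside 8.16% and 13.9% of 16370 genes. The largest differences were 14.4 points for *Fbxw7*, the ubiquitin-ligase subunit that recognises JUN (36 of 40 and 31 of 41 nuclei), −8.78 for *Cops5* (JAB1), which binds JUN (16 and 20), and 8.35 for *Cul3*, a ubiquitin-ligase scaffold (17 and 14). None reached 20 points in whole cells. There *Rfwd2*, the gene of the ubiquitin ligase COP1, differed by 17.9 points (18 of 30 PTZ and 16 of 38 saline cells). *Fbxw7* differed by −17.4 (24 and 37) and *Cops5* by −14.9 (20 and 31). Of 13 genes known as AP-1 targets 5 passed in nuclei and 3 were at least 20 points higher in FOS+ nuclei, beside 4.3% of all genes. By any amount 4 of the 5 were higher and 1 lower, where 47.7% of all genes were higher. The median of the 5 was 43.5 points, beside −0.79 for all genes. The filter lets a gene in through the group in which it is high. The targets that did not pass differed by 0 to 2.5 points. *Vgf*, a secreted neuropeptide precursor, was detected in 25 of 40 and 2 of 41 nuclei, *Nptx2*, a pentraxin of excitatory synapses, in 22 and 1, and *Scg2*, a granin, in 34 and 17. In whole cells 7 passed and 0 reached 20 points, and *Nptx2*, *Scg2* and *Ccnd1* differed most, by 13.5, −8.07 and 2.81 points.

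The genes whose TPM was most like that of a member were ranked by Spearman's rho over the 40 FOS+ nuclei, among 10475 other genes detected in at least 20% of them, and over the 38 saline cells, among 9981. In FOS+ nuclei *Fos* was most like *Nr4a1* (rho 0.79), *Wdr89* (0.71) and *Nr4a3* (0.63), with *Fosb* in place 5. *Fosb* was most like *Noct* (0.68), *Nr4a1* (0.65) and *Nr4a2* (0.65). *Fosl2* was most like *Slc25a3* (0.67), *5330406M23Rik* (0.65) and *1700016P03Rik* (0.65). *Nr4a1*, *Nr4a2* and *Nr4a3* encode orphan nuclear receptors that are IEGs. For the JUN genes *Trak1* (0.66) came first for *Junb*, *Krr1* (0.57) for *Jun* and *Inafm2* (0.56) for *Jund*. First places are the highest of 10475 values over nuclei that differ in depth and amplification. How high unrelated genes would reach was not tested.

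In saline cells the members ranked among one another. *Fos* was most like *Fosb* (0.89), *Egr1* (0.88) and *Nr4a1* (0.88), *Fosb* most like *Nr4a1* (0.89), *Fos* (0.89) and *Junb* (0.88), and *Junb* most like *Btg2* (0.90), *Fosb* (0.88) and *Fos* (0.87). *Gm13889* came first for *Jun* (0.81) and *Jund* (0.82). For *Fosl2* the first were *Spry2* (0.62), *Smad3* (0.62) and *Arc* (0.61), and *Fos* was in place 186. The likeness of *Fosl2* to *Fosb* was 0.61 in FOS+ nuclei and 0.37 in saline cells, and the difference between these was not tested.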

How the data were processed

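The authors amplified RNA of single whole cells and NE nuclei with Smart-seq2 and of HC nuclei on the Fluidigm C1, made libraries with Nextera XT, which does not mark the strand, and sequenced whole cells and HC nuclei as paired reads of 100 bases and NE nuclei as single reads of 50 bases. The authors deposited expected counts, RSEM's estimate of the reads from each gene, and TPM values, the same estimate scaled within each cell. The submitters' processing notes name RSEM, Bowtie 1.0.0 and mm10. RSEM divides reads between genes with the same sequence, and opposite-strand genes that overlap a member (*Ccdc85b*, *Junos*, *Prdx2*, *Gm11175*) cannot be told apart from it where they share sequence. No 2 columns were identical. Spike-ins were not used here.

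The members, gene lists, limits and alternatives were chosen with earlier results of these data known. The paper tested cells as replicates with edgeR. That was not followed here, since labels name no animal and each group is 1 sample, and shares, sums and limits of size were used without a test. Expected counts were rounded to whole numbers and summed over the cells kept, and folds are ratios of the sums scaled by library totals. A difference of at least 20 percentage points in detecting share or a fold of at least 4 was the limit of size, among genes with a count in at least 5 of the cells compared. Shares have 95% Clopper-Pearson intervals, a share of 0 has 3 cells or nuclei of the group as its upper limit, and sums and their ratios exact Poisson intervals. Reads are not independent molecules, so these cover counting error only. In a cell kept, 3 counts are between 5.85e-05% and 0.00446% of the total in PTZ cells, 0.000111% and 0.000748% in saline cells, 0.00029% and 0.00375% in FOS+, 0.000283% and 0.0047% in FOS− and 0.00108% and 0.00279% in HC nuclei. The share expected at 50000 counts is hypergeometric. From each list the 3 genes of largest difference in detecting share per comparison are named, and 3 genes per member and group by rho for members detected in at least 20% of that group. Functions were tested on simulated data. Alternatives covered the limit on TPM, the cells, the scaling (edgeR 4.0.16 TMM factors, DESeq2 1.42.0 size factors), the filter and the 4 amplification conditions. A further one left out the cell of highest CPM for the gene in each group, called the highest cell or nucleus here. Python 3.11.15, pandas 2.3.3, scipy 1.17.1 and R 4.3.3 were used. Positions come from GENCODE on GRCm38 and promoters from RefSeq, which matched 6 of the 7 members. Protein sequences were not used here.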

Additional observations from a re-analysis of the deposited data

Results flagged for a closer look

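Cells and nuclei below the criteria on depth entered no comparison, and 4 results among them exceeded the control group. *Fos* was detected in 5 of 5 such PTZ cells and 4 of 9 saline cells. *Jun* was detected in 2 of 5 PTZ and 1 of 9 saline cells, and *Fosb* in 1 of 5 and 1 of 9. These PTZ cells had total counts of 349 to 1287, so that a TPM above 1 can rest on 1 read. *Fosb* was also detected in 1 of 8 FOS+ nuclei left out, at 53.9 TPM in a nucleus of 4753 counts, and in 0 of 7 FOS− nuclei left out. Other members went the other way. *Fos*, *Fosl2*, *Junb* and *Jund* were each detected in 0 of 8 FOS+ and 1 of 7 FOS− nuclei left out, *Fos* there at 160 TPM. *Junb* was detected in 0 of 5 PTZ and 2 of 9 saline cells left out. Every group held over 10 samples, so no search for single outlying samples was made within groups.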

How the results depend on the processing

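No paired analysis was possible because the replicate numbers only name samples and the results come from no test. Of the 112 alternative values of the members' detection differences 106 moved by less than their counting interval. The sign turned only in values below the limit of 20 points, for *Jund* in whole cells in 5 of 6 alternatives (up to 3.94 points), for *Fosl1* there in 1 of 6 (5.44) and for *Fosl1* in nuclei in 1 of 10. The 6 larger moves came from single amplification conditions of 8 to 11 nuclei per group. At 1 µM TSO and 200-fold spike-ins *Fosl2* differed by 70 points, *Jun* by 60 and *Jund* by 40, at 1 µM and 2000-fold *Fos* by 40 and *Junb* by 52.5, and at 10 µM and 200-fold *Fosl1* by −10. The mean number of members per nucleus, 2.13 higher in FOS+ nuclei, became 2.68 at 1 µM and 2000-fold and 1.39 at 10 µM and 200-fold. Of the 124 alternative folds 118 kept their side of the limit. *Fosl1* in nuclei was at 1.05 on the log2 scale without the highest nucleus and 0.86 at 10 µM and 2000-fold, *Fosl2* in whole cells at −1.10 and −1.09 by mean CPM and TPM, and *Jund* at −2.24 at 10 µM and 200-fold. Counts of genes moved with the limits. In nuclei, 705 genes at least 20 points higher and 606 lower became 2643 and 2708 at 10 points and 163 and 77 at 30 points, 314 higher with all nuclei and 383 lower by a count of at least 5. The 1335 genes at least 4-fold higher and 2277 lower became 2408 and 3772 without the filter and 2965 and 4663 at 2-fold. In whole cells, 448 and 627 became 2317 and 2734 at 10 points and 66 and 96 at 30 points, with 181 lower in all cells, and 791 and 739 became 1970 and 1679 without the filter and 1924 and 2099 at 2-fold. The cause of these moves was not tested. The number of nuclei limits a share of 0, and 0 of 41 allows up to 7.32% by the limit of 3 nuclei. Depth limits members at few counts: the ratios of *Fos*, *Fosb* and *Fosl1* rest on 3, 2 and 1 counts in FOS− nuclei.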
